A study of Mus with 4 samples.

Results

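Forkhead transcription factors are a family of DNA-binding proteins, and the array carried 78 probe sets for 36 of their genes, of 45037 probe sets and 18193 genes tested in all. A probe set was a member if the platform annotation gave it a single symbol made of Fox, a subfamily letter and a number. Foxm1 and Foxa1 were left out by the same rule. One of the 36 symbols, Foxl2os, belongs to a transcript from the opposite strand of Foxl2 and not to a protein. RNA of the mouse prostate cancer line PPS-ICBR (strain C57Bl6) was hybridised to 4 Affymetrix arrays. Treated cells had been kept overnight with vorinostat at 5 µM in DMSO (arrays vorinostat 1 and vorinostat 2), and the control cells with the solvent alone, at 5 µL of DMSO in 10 mL of medium (arrays DMSO 1 and DMSO 2). All were seeded at 60% confluency and grown in serum-containing medium, and they are a single line. Vorinostat inhibits histone deacetylases, enzymes that remove acetyl groups from histones and other proteins, and the comparison asked which transcripts differed after it.

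Forkhead proteins share a winged-helix domain that binds DNA, and the letter of the name gives the subfamily. FOXO proteins act downstream of insulin and growth factor signalling: kinases of the AKT and SGK families phosphorylate them, which holds them in the cytoplasm, and in the nucleus they activate genes of cell cycle arrest, stress resistance and autophagy. FOXC, FOXF and FOXL1 proteins direct mesenchymal development, FOXP proteins are mostly repressors, FOXJ1 drives the building of motile cilia, and FOXA proteins open chromatin in epithelia such as prostate.

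Levels are the deposited log2 values, 1 per probe set and array, and a change is vorinostat minus DMSO on that log2 scale, with its standard error (SE) from limma and an adjusted p over all probe sets tested. A gene is represented by its probe set with the highest mean. A value is called near background when it lies less than 1 log2 unit above the highest of 3 control probe sets for a transcript absent from the samples. On the 4 arrays that limit lay between 3.54 and 3.78. It was below the median of every array, so a level above it does not by itself show that a gene is expressed. The array medians lay between 4.19 and 4.28, and no forkhead probe set differed by more than 2-fold between arrays of the same group (0 of 78 in each group, where all probe sets gave 9 in the vorinostat group and 16 in the DMSO group). Epithelial markers were above the limit in both groups at 7 of 7 genes. Of these, 2 rose (Elf3 and Krt19) and 2 fell (Krt8 and Cldn7), or 28.6% each, where all genes gave 20.9% and 18.9%. Prostate luminal markers were above the limit at 3 of 5 genes, of which Psca rose by 1.32 and Hoxb13 by 0.54 and Tmprss2 did not pass. The luminal secretory genes Pbsn and Msmb were near background. Fibroblast markers were also above it, at 6 of 7 genes in each group. No label ties the arrays within a group to independent cultures, and the p-values therefore reflect a spread that may be technical.

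Of the 36 forkhead genes, 8 were lower with vorinostat, 1 was higher and 27 did not pass the adjusted p threshold of 0.05. Those 9 calls in 36 genes stand against a background of 39.9% called among all genes. The 8 lower genes are 22.2%, against a background of 18.9%, and the 1 higher gene is 2.78%, against 20.9%. Foxc2, Foxl1, Foxc1, Foxn2, Foxk2, Foxn3, Foxb1 and Foxp1 fell, and Foxo1 rose. A fall of at least 2-fold was found in 2 of the 36 genes (5.56%, background 6.17%) and a rise of that size in 0 (background 5.74%), where 11.9% of all genes changed at least 2-fold in either direction. Over probe sets the count was 14 lower and 4 higher of 78, or 17.9% and 5.13%, where all probe sets gave 15.7% lower, 16.5% higher and 32.2% in either direction. At least 2-fold falls numbered 3 of 78 (background 4.67%) and rises 0 (background 4.02%, and 8.69% for either direction). The arrays of the groups did not overlap in 22 of the 36 genes, or 61.1%, with a background of 68.9%, and in 46 of the 78 probe sets, or 59.0%, with a background of 62.8%. The median change of the 36 genes was 0.012, and that of all genes 0.027. With arrays scaled on 9 reference genes the split became 15 higher and 4 lower, where all probe sets gave 20581 higher and 4496 lower. That scaling lifted the median change of all genes to 0.30, and it rests largely on Gusb (-1.42) and Polr2a (-0.75). With the other 7 reference genes, a choice made after their values were seen, 1 forkhead gene was higher and 8 were lower. Over all probe sets 8554 were then higher and 6519 lower.

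**Figure D1:**
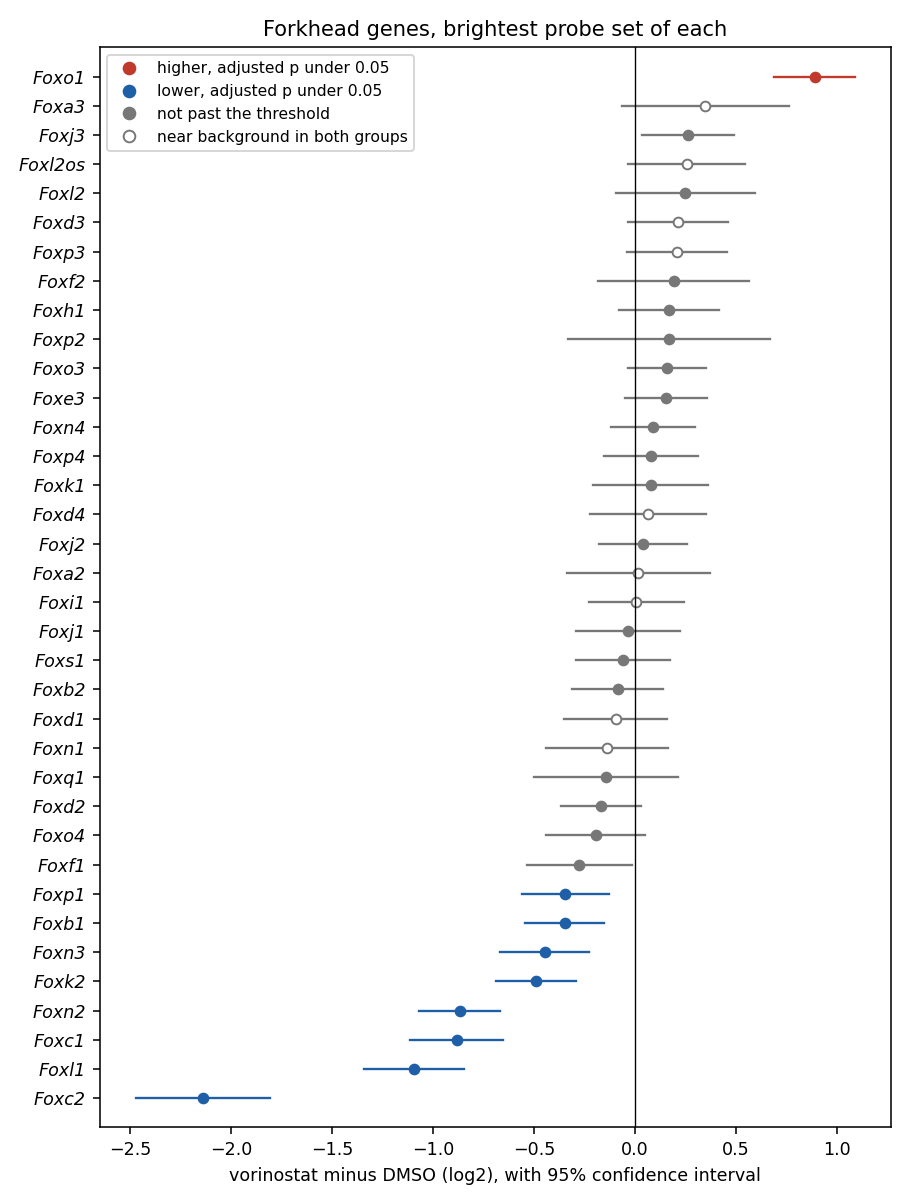
The change (vorinostat minus DMSO, log2 units) of each of the 36 forkhead genes at its brightest probe set, with its 95% confidence interval from limma. Foxc2, at -2.14, lies farthest from zero; Foxo1, at 0.89, is the single gene past the threshold on the higher side.

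Foxc2, a regulator of lymphatic and mesenchymal development, had the lowest change of the family. Its level was 3.97 and 4.30 on the vorinostat arrays and 6.33 and 6.22 on the DMSO arrays. The groups were far apart, and vorinostat 1 lay just above the near-background limit of 3.78 on that array. The change was -2.14 (SE 0.13, adjusted p = 0.00037), a 4.41-fold lower level.

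Foxl1, a mesenchymal factor of gut and other organs whose expression follows Hedgehog signalling, had levels of 4.89 and 5.06 with vorinostat and 6.02 and 6.12 with DMSO. The arrays of the groups did not overlap. The change was -1.09 (SE 0.098, adjusted p = 0.00101), or 2.13-fold lower.

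Foxc1, the paralogue of Foxc2 with roles in eye, bone and vessel development, fell at both of its probe sets. The brighter one had levels of 6.81 and 6.73 with vorinostat and 7.73 and 7.58 with DMSO, a change of -0.88 (SE 0.091, adjusted p = 0.00156). At the dimmer one the levels were 5.20 and 4.92 with vorinostat and 6.22 and 6.18 with DMSO, a change of -1.15 (SE 0.12, adjusted p = 0.00144). The probe sets do not overlap between groups, and the dimmer one passed 2-fold.

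Foxf1, a Hedgehog-responsive factor of visceral mesenchyme, did not pass. Its levels were 7.61 and 7.82 with vorinostat and 7.94 and 8.04 with DMSO, and its change of -0.27 (SE 0.10, adjusted p = 0.104) has a 95% interval of -0.53 to -0.016. The call appeared with arrays centred on their medians (-0.33, adjusted p = 0.0473), with an intensity trend and a robust prior together (adjusted p = 0.0328) or when only the brighter probe sets, those above the median level, were tested (adjusted p = 0.0482), and the change was 0.000341 under reference-gene scaling. Its second probe set was at -0.20 (SE 0.10, adjusted p = 0.225). Foxf2 averaged 4.83 with vorinostat and 4.64 with DMSO, a change of 0.19 (95% interval -0.18 to 0.57).

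**Figure D2:**
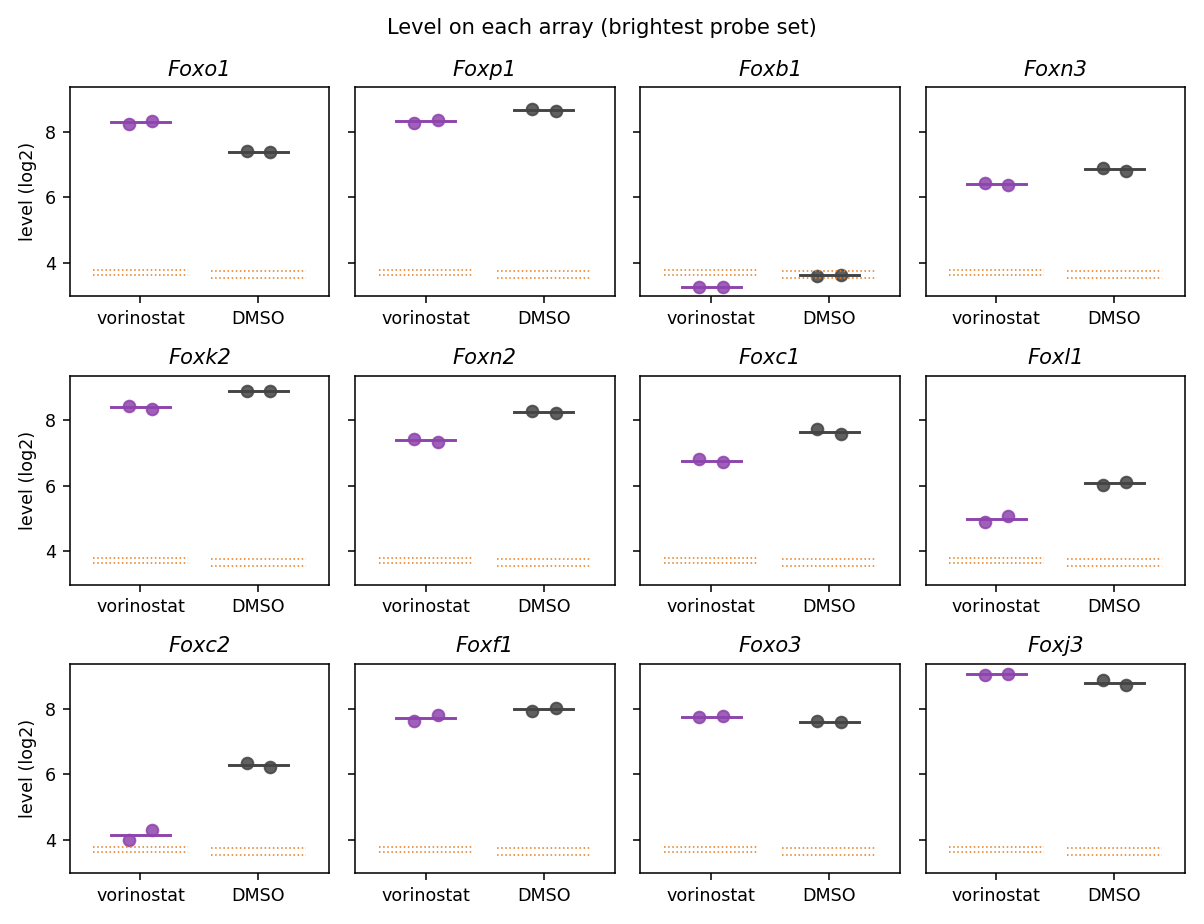
Level (log2) on each array of the 9 called genes and of Foxf1, Foxo3 and Foxj3, with vorinostat at left and DMSO at right; points are single arrays, bars their means of 2, and dotted lines the near-background limits of the arrays in that group. Foxc2 comes close to the limit with vorinostat (3.97 and 4.30), and Foxb1 lies close to it or below it.

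These mesenchymal members sit in chromosomal clusters. Among the protein-coding genes of RefSeq's mouse assembly GRCm38.p6, Foxf1, Foxc2 and Foxl1 lie together with Mthfsd between Foxf1 and Foxc2, and Foxq1, Foxf2 and Foxc1 lie next to each other. These neighbours were looked up after the forkhead values were seen. Mthfsd, which encodes a folate-related RNA-binding protein, fell too, by 1.18 on the log2 scale (SE 0.095, adjusted p = 0.000746). Mthfsd, Foxc2 and Foxl1 are thus 3 neighbours in a row called lower, where 18.9% of all genes were lower and 39.9% were called. Whether they changed together was not tested. Beyond Foxl1, the next genes had changes of 0.044 (1700018B08Rik) and 0.029 (Fbxo31), and then Map1lc3b rose by 1.10. On the Foxf1 side, Irf8 had a change of 0.23 and did not pass, Cox4i1 rose by 0.41 and Emc8 fell by 0.54. In the other cluster Foxc1 was the single member past the threshold. Foxq1, an epithelial factor, averaged 4.62 with vorinostat and 4.76 with DMSO (change -0.14, 95% interval -0.50 to 0.21). Gmds, next to Foxc1 on the far side, rose by 1.11 (SE 0.12, adjusted p = 0.0016).

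**Figure D3:**
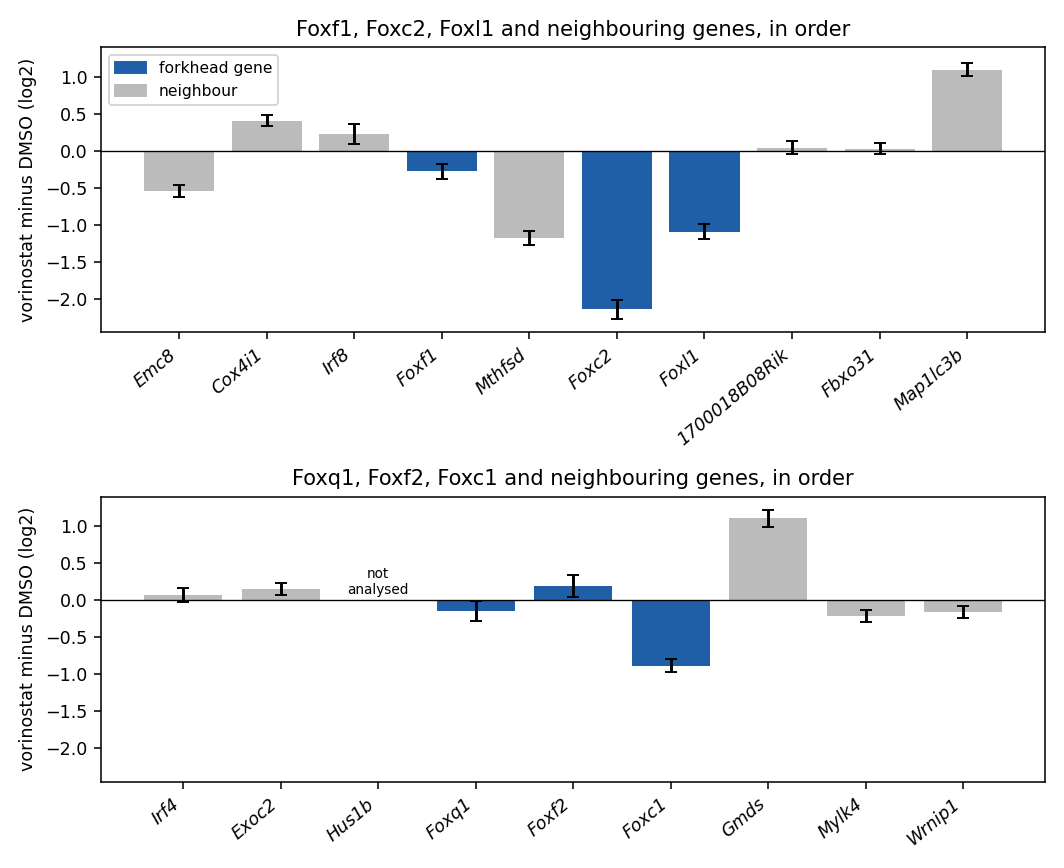
Change (vorinostat minus DMSO, log2, bars with SE from limma) of the forkhead genes of both clusters and of 3 protein-coding genes on either side, in chromosomal order and not to scale. Mthfsd, Foxc2 and Foxl1 are consecutive and lie between -1.09 and -2.14. Foxf1, next to Mthfsd, is at -0.27, and Irf8 and 1700018B08Rik, on either side of the cluster, are at 0.23 and 0.044. Farther out, Emc8 fell, and Cox4i1 and Map1lc3b rose.

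Fibroblast markers moved in both directions beside these falls. Pdgfrb, a receptor of mesenchymal cells, had levels of 6.52 and 6.67 with vorinostat and 9.14 and 9.03 with DMSO, a change of -2.49 (SE 0.095, adjusted p = 0.000177). Col3a1 fell by 0.89 on the log2 scale, whereas Pdgfra rose by 1.54 and Dcn by 1.26. Of the 7 markers, 2 rose and 2 fell (28.6% each, where all genes gave 20.9% and 18.9%), and 3 did not pass. Their summed linear level was 7961 and 9319 with vorinostat and 10144 and 10108 with DMSO. Lum was near background in both groups. The part of these markers in the forkhead changes was not tested. In cultured cells sampled as a whole, fewer cells of one kind and less RNA per cell cannot be told apart.

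Among the FOXO genes, Foxo1 rose and Foxo3 and Foxo4 did not pass. Foxo1, which in many tissues links insulin signalling to metabolic and cell cycle genes, had levels of 8.26 and 8.32 with vorinostat and 7.41 and 7.38 with DMSO at its brightest probe set. The change was 0.89 (SE 0.079, adjusted p = 0.000971), or 1.86-fold. Further probe sets rose by 0.91 (SE 0.12) and 0.70 (SE 0.11), and the fourth, near background in both groups, had a change of 0.042. The brightest is of the type _s_at, which can match several transcripts, but the next, of type _at, had nearly the same change. Both dimmer ones lost the call without vorinostat 1 (0.92 and 0.70, adjusted p = 0.0534 and 0.0685) and without vorinostat 2 (0.90 and 0.70, adjusted p = 0.0519 and 0.0644), while the brightest passed in all 10 alternatives computed per probe set.

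Foxo3, a stress-responsive FOXO, had levels of 7.74 and 7.77 with vorinostat and 7.61 and 7.58 with DMSO. The groups did not overlap, and the change of 0.16 (SE 0.077, adjusted p = 0.19) has a 95% interval of -0.036 to 0.35. A dimmer Foxo3 probe set was at 0.38 (SE 0.11, adjusted p = 0.052), just outside the threshold, and the third at 0.31. Taken as the mean of its probe sets, Foxo3 passed with a change of 0.28 (adjusted p = 0.0214). Foxo4, an X-linked FOXO, had levels of 6.13 and 6.03 with vorinostat and 6.36 and 6.19 with DMSO, a change of -0.19 (95% interval -0.44 to 0.050). The difference between Foxo1 and its relatives was not tested, and while at the brightest probe sets the intervals of Foxo3 and Foxo4 end below the lower bound of 0.69 for Foxo1, those of dimmer Foxo3 probe sets reach 0.66 and 0.71 and overlap those of dimmer Foxo1 probe sets, which start at 0.43 and 0.61.

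Of 29 measured regulators of FOXO proteins, 8 rose and 11 fell (27.6% and 37.9%, where all genes gave 20.9% and 18.9%). The median change was -0.016, against 0.027. None of the 29 was near background in both groups, whereas 4650 of all 18193 genes were, so the shares come from unlike sets. Pdpk1, the kinase that activates AKT and SGK, rose by 1.26 (SE 0.084). Sgk1, which phosphorylates FOXO proteins, had levels of 12.14 and 12.10 with vorinostat and 10.94 and 10.89 with DMSO and rose 2.30-fold. Skp2, the ubiquitin ligase subunit that marks FOXO1 for degradation in human cells, fell by 1.41 (SE 0.081), and the nuclear exporter Xpo1 by 1.11 (SE 0.077). Akt1, named after its value was seen, fell by 0.86 (SE 0.084). Fewer regulators passed without single arrays, where calls were fewer over all probe sets too. Reference-gene scaling gave 14 higher and 7 lower, where all probe sets gave 20581 higher and 4496 lower.

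Of 30 measured genes known as FOXO targets, 18 rose, 2 fell and 10 did not pass, 7 of these 10 being near background in both groups. The 18 are 60.0% of the list, against 20.9% of all genes, and the median change was 0.56, against 0.027. This list was drawn up with earlier results of these arrays known and is no independent evidence of its direction. Txnip, which restrains thioredoxin, had the largest rise of the list, at 4.47 (SE 0.11), followed by the transcriptional coregulator Cited2 at 2.17 (SE 0.077). The insulin receptor gene Insr (-1.11, SE 0.23) and its adaptor gene Irs2 (-0.81, SE 0.13) fell. Insr had levels of 5.29 and 5.90 with vorinostat and 6.88 and 6.51 with DMSO. It lost the call without vorinostat 1 (-0.80, adjusted p = 0.0893), DMSO 1 (-0.92) or DMSO 2 (-1.29), and its mean over all probe sets was -0.28 (adjusted p = 0.086). Irs2 lost it without either vorinostat array (-0.87 and -0.75).

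Foxp1, a transcriptional repressor needed for lung, heart and lymphocyte development, had 8 probe sets, of which 5 fell and 0 rose. The brightest had levels of 8.28 and 8.38 with vorinostat and 8.71 and 8.64 with DMSO, a change of -0.35 (SE 0.085, adjusted p = 0.0311). It is the smallest of the 5 falls. The other 4 fell by 0.41 to 0.72 on the log2 scale, the largest fall being -0.72 (SE 0.083) at levels of 7.23 and 7.31 with vorinostat and 8.03 and 7.95 with DMSO. That probe set and the one at -0.63 passed in every alternative that kept them, whereas the brightest lost its call when any 1 of the 4 arrays was left out (changes of -0.30 to -0.40). The sixth bright probe set was at -0.21 (SE 0.12, adjusted p = 0.246), and both dim ones, near background, were at 0.012 and -0.11. Among the 5 called probe sets the size of the Foxp1 fall thus varied between 1.27-fold and 1.64-fold, and the sixth bright one was 1.16-fold lower without a call.

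**Figure D4:**
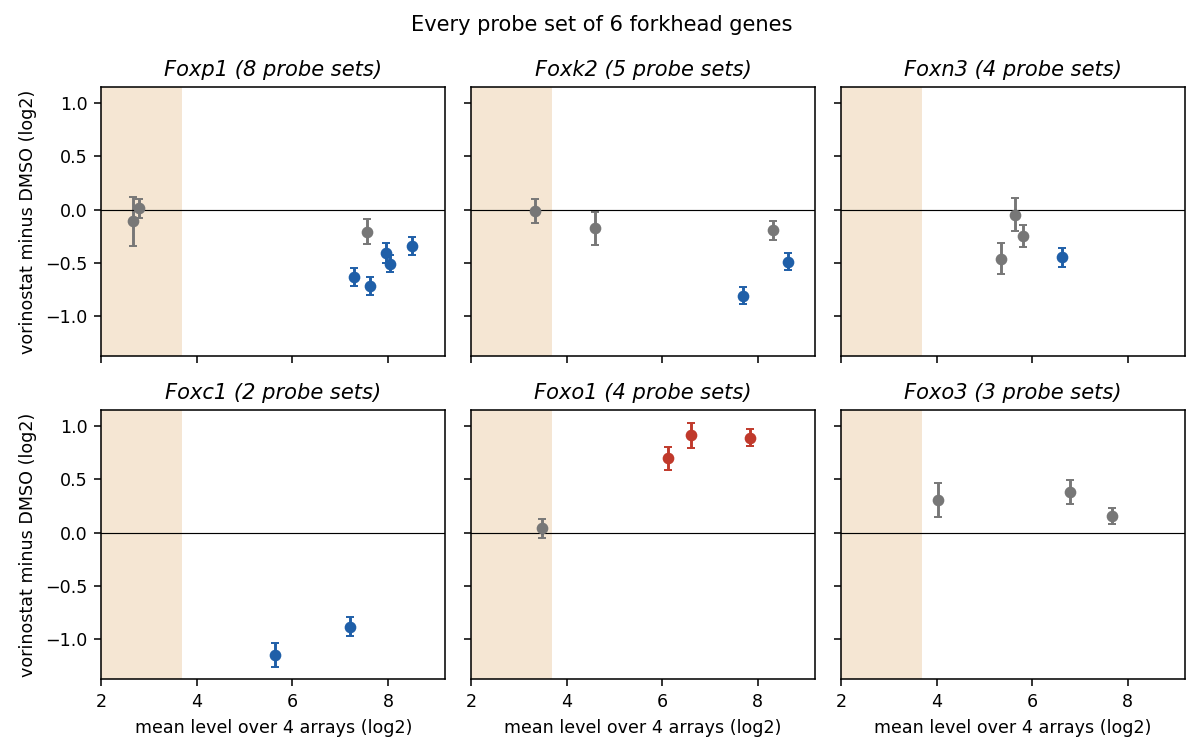
Change (vorinostat minus DMSO, log2, with SE) of every probe set of Foxp1, Foxk2, Foxn3, Foxc1, Foxo1 and Foxo3 against its mean level over the 4 arrays (log2); blue is lower and red higher past the threshold, grey did not pass, and the shaded band is near background. Called probe sets of a gene share their direction, and probe sets in the band lie between -0.11 and 0.042.

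The other FOXP genes did not pass at their brightest probe sets. Foxp2, known for a role in human speech and in birdsong, had 6 probe sets, all with a mean level below 4. One of them rose by 0.59 (SE 0.12, adjusted p = 0.0167), at levels of 3.88 and 4.10 with vorinostat and 3.30 and 3.51 with DMSO. DMSO was near background there, and measured from the DMSO limit the rise was 1.27-fold. That fold takes no account of the spread between arrays, and the 95% interval of the change was 0.28 to 0.89. The rise lost the call when any 1 array was left out. The brightest Foxp2 probe set was at 0.17 (95% interval -0.33 to 0.67). Foxp3, which defines regulatory T cells, was near background in both groups, with means of 3.12 for vorinostat and 2.91 for DMSO, as was Ptprc, the common leukocyte antigen gene. Of 9 immune cell markers, 4 were above the limit in each group, which does not by itself show expression. Cd3g and Il2ra were near background in both groups. Cd3e alone rose (0.43, SE 0.087), or 11.1% of the 9, where all genes gave 20.9%. Foxp4 averaged 5.20 with vorinostat and 5.12 with DMSO (change 0.080, SE 0.092), and its dimmest probe set was at -0.30 (adjusted p = 0.101).

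Foxk2, which recruits the SIN3A corepressor and the BAP1 deubiquitinase in human cells, fell at 2 of 5 probe sets. The brightest had levels of 8.43 and 8.36 with vorinostat and 8.88 on both DMSO arrays, a change of -0.49 (SE 0.079, adjusted p = 0.00714). Another, at 7.29 and 7.26 with vorinostat and 8.10 and 8.07 with DMSO, had -0.81 (SE 0.077, adjusted p = 0.00122) and passed in all 11 alternatives computed per probe set. The one between them in brightness was at -0.20 (SE 0.087, adjusted p = 0.157). The brightest lost its call without vorinostat 2 (-0.46), DMSO 1 (-0.49) or DMSO 2 (-0.49). Foxk1, its paralogue, had levels of 7.12 and 7.19 with vorinostat and 7.20 and 6.94 with DMSO, which overlap (change 0.079, 95% interval -0.21 to 0.36).

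Foxn2, a little-studied member, had levels of 7.42 and 7.35 with vorinostat and 8.27 and 8.23 with DMSO. It fell by 0.87 on the log2 scale (SE 0.079, adjusted p = 0.00107), or 1.83-fold, with the groups far apart. Its second probe set was near background in both groups. Foxn3, a repressor tied to cell cycle checkpoints, had levels of 6.45 and 6.36 with vorinostat and 6.91 and 6.79 with DMSO, a change of -0.45 (SE 0.088, adjusted p = 0.0144). It lost the call when any 1 array was left out (-0.39 to -0.51), and its other 3 probe sets, at -0.048 to -0.46, did not pass. Foxn4, which acts in retinal and ciliated cells, averaged 5.27 with vorinostat and 5.18 with DMSO (change 0.089, SE 0.082). Foxn1, the master factor of thymic epithelium, was near background.

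Of 22 measured partner genes, whose products bind FOXP, FOXK, FOXO or other forkhead proteins, 10 fell and 3 rose. These are 45.5% and 13.6%, where all genes gave 18.9% and 20.9%, and the median change was -0.24, against 0.027. None of the 22 was near background in both groups, whereas 4650 of all 18193 genes were, so the shares come from unlike sets. The corepressor gene Ctbp1 fell by 1.51 (SE 0.081) and Mta1, a NuRD subunit gene, by 1.22 (SE 0.077). Sin3b rose by 0.59 (SE 0.081) and the deacetylase gene Hdac1 by 0.50 (SE 0.0997). Hdac1 did not pass without vorinostat 1 (0.40), DMSO 1 (0.53) or DMSO 2 (0.46). Fewer partner genes passed without single arrays, where calls were fewer over all probe sets too. Scaling on the reference genes gave 8 higher and 6 lower, where all probe sets gave 20581 higher and 4496 lower.

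None of the 3 FOXJ genes passed, at -0.033 for Foxj1, 0.041 for Foxj2 and 0.26 for Foxj3. Foxj1, the ciliogenesis factor, had levels of 4.29 and 4.31 with vorinostat and 4.44 and 4.22 with DMSO, and its 95% interval of -0.29 to 0.23 leaves out changes of 2-fold. Foxj2 averaged 7.35 with vorinostat and 7.31 with DMSO. Foxj3, a regulator of mitochondrial and muscle genes in mice, had levels of 9.04 and 9.07 with vorinostat and 8.87 and 8.72 with DMSO. Its change of 0.26 (SE 0.090, adjusted p = 0.0838) passed with an intensity trend and a robust prior together (adjusted p = 0.0123) and with only the brighter probe sets tested (adjusted p = 0.0337). Of 22 measured motile cilium genes, 6 rose and 1 fell (27.3% and 4.55%, where all genes gave 20.9% and 18.9%), with a median change of 0.073, against 0.027. Near background in both groups were 9 of them, among these 1 of the 6 that passed as higher, Rsph4a, at means of 2.76 with vorinostat and 1.99 with DMSO. Spa17, a sperm surface and fibrous sheath protein gene, had levels of 5.02 and 5.10 with vorinostat and 2.79 and 2.98 with DMSO, where it was near background, a rise of at least 2.67-fold. Rsph9, a radial spoke gene, rose by 1.59 (SE 0.13), and the axonemal dynein gene Dnah11 fell by 0.50 (SE 0.10). Dnah11 did not pass without vorinostat 1, vorinostat 2 or DMSO 2 (-0.39 to -0.50). Fewer of the 22 rose without single arrays, where calls were fewer over all probe sets. With only the brighter probe sets 2 rose. Under reference-gene scaling 14 rose, where all probe sets gave 20581 higher and 4496 lower.

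The remaining members lay near background or, Foxb1 apart, did not pass. Foxb1, a factor of the developing hypothalamus, passed with a change of -0.35 (SE 0.078, adjusted p = 0.0224), but its levels were 3.26 and 3.27 with vorinostat, near background, and 3.59 and 3.64 with DMSO, one of which was also below the limit. No fold is given for it, and it lost the call when any 1 array was left out. Foxb2 averaged 4.38 with vorinostat and 4.46 with DMSO (-0.084, 95% interval -0.31 to 0.14). Foxd2, a kidney and facial mesenchyme factor, was at -0.17 (-0.37 to 0.029), and Foxe3, a lens factor, at 0.15 (-0.048 to 0.36). Foxh1, a partner of SMAD proteins in Nodal signalling, was at 0.17 (-0.078 to 0.42). Foxl2, the ovarian factor, was at 0.25 (-0.093 to 0.59), and Foxs1 at -0.059 (-0.29 to 0.18). Each of these intervals leaves out a 2-fold change of the signal at the brightest probe set. Other probe sets of Foxd2 and Foxl2 were at 0.018 and -0.14, that of Foxl2 being near background with vorinostat. The other probe sets of Foxh1 were near background in both groups. The 9 genes near background in both groups were Foxa2, Foxa3, Foxd1, Foxd3, Foxd4, Foxi1, Foxl2os, Foxn1 and Foxp3, and their changes ran from -0.14 to 0.35 without a call. Foxa2, which marks neuroendocrine prostate tumours, had 3.76 and 3.46 with vorinostat and 3.47 and 3.71 with DMSO. With a limit 0.5 log2 unit above the controls in place of 1, 4 genes were near background in both groups.

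Under 12 alternatives of processing, among them the omission of each array, no called forkhead gene changed direction. The groups of these genes did not overlap at the brightest probe set, so omission of an array could not reverse a direction there. The replicate block, the variance modelling and the level filter leave the change itself as it was. Foxc2, Foxl1, Foxc1, Foxn2 and Foxo1 passed the threshold in all 12. Their changes ran from -2.31 to -1.87 for Foxc2, -1.18 to -0.82 for Foxl1, -1.01 to -0.61 for Foxc1, -0.93 to -0.49 for Foxn2 and 0.64 to 1.17 for Foxo1. Foxk2 passed in 8, Foxn3 in 7 and Foxp1 in 6 of 12, and Foxb1 in 4 of the 11 that gave it a value. Without single arrays fewer forkhead genes passed, and calls were also fewer over all probe sets.

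**Figure D5:**
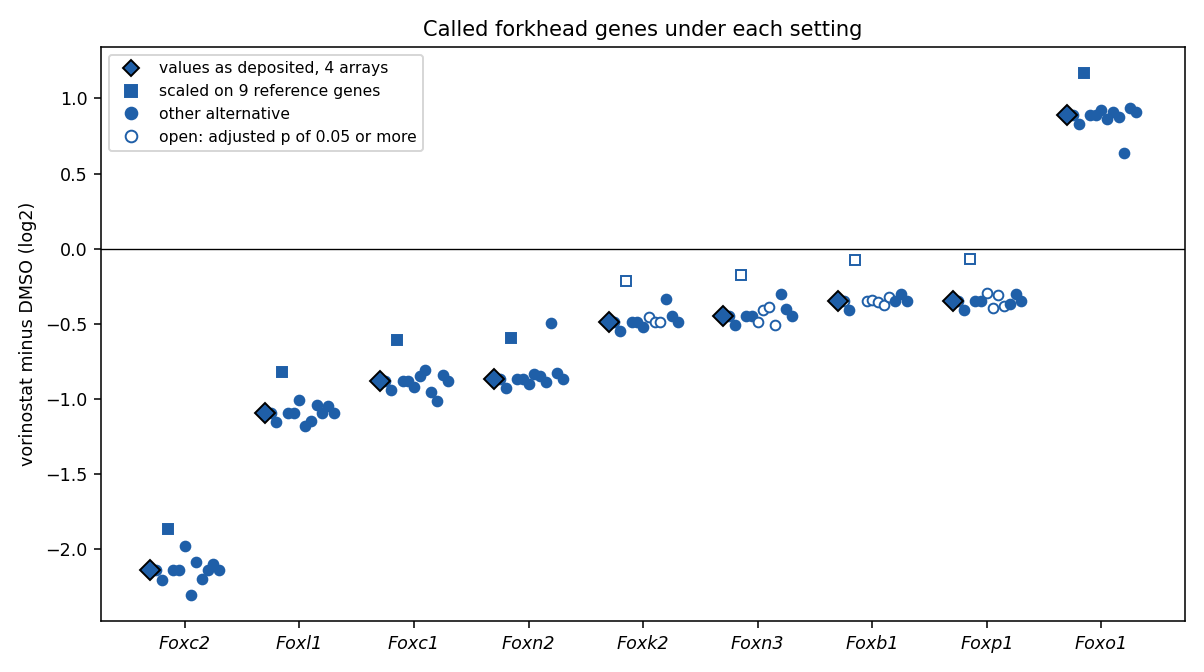
Change (vorinostat minus DMSO, log2) of the 9 called forkhead genes as deposited (diamonds), with arrays scaled on 9 reference genes (squares) and under the other alternatives (circles), filled where adjusted p is under 0.05. Foxc2, Foxl1, Foxc1, Foxn2 and Foxo1 are filled throughout, and Foxk2, Foxn3, Foxb1 and Foxp1 have open symbols.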

How the data were processed

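Each of the 4 arrays was hybridised with biotin-labelled material from total RNA. The authors deposited log2 values, 1 per probe set and array; per the submitters' processing notes these were made with RMA and the Transcriptome Analysis Console, without versions. RMA equalises intensity distributions between arrays, so a shift common to every transcript is lost. For the annotation, a genome build is not given in the sources used. After removal of 64 control probe sets 45037 remained. Of these, 34945 had 1 symbol in the platform annotation, 932 several and 9160 none. Vorinostat and DMSO arrays, grouped by title, were compared by limma 3.58.1 in R 4.3.3 (lmFit and eBayes, two-sided, Benjamini-Hochberg adjustment over 45037 probe sets, threshold 0.05, no filter). The script was tested on simulated data. An exact permutation test of 2 against 2 arrays cannot give a p below 0.333, and the number of arrays limits precision. Every member is accounted for. Values are given for members with a call or above the near-background limit in a group. From each pathway list the top 2 genes by size of change are named in either direction, among those past the threshold, and other named genes were chosen after their values were seen. Fold bounds and folds measured from a limit use the mean limit of the dimmer group. The members and lists were chosen with earlier results of these data known. Reference genes measured were 9 of 12. Neighbouring genes came from RefSeq (GRCm38.p6) by order. Alternatives covered array scaling, filtering, variance modelling, probe set choice, a replicate block and omission of arrays.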

Additional observations from a re-analysis of the deposited data

How the results depend on the processing

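Replicate numbers are shared between the groups, but nothing ties same-numbered arrays together, and the correlation of their deviations over all probe sets was -0.06 (-0.097 above the median level). With the replicate number as a block, 1 forkhead gene was higher and 6 were lower, since Foxb1 and Foxp1 lost their calls, forkhead probe sets gave 4 higher and 11 lower, and 1 FOXO target was lower, Insr having lost its call. Scaling on 9 reference genes gave 15 forkhead genes higher and 4 lower, and 31 forkhead probe sets higher and 8 lower. It gave 14 FOXO regulators higher and 7 lower, 8 partners higher and 6 lower, and 14 motile cilium genes higher and 0 lower. All probe sets then gave 20581 higher and 4496 lower, or 82.1% of calls higher. By construction this scaling adds 0.28 to every change. Forkhead genes higher numbered 2 with an intensity trend and robust prior together, with probe sets above the median level and with the mean of all probe sets. The mean of all probe sets gave 1 FOXO target and 2 cilium genes lower, omission of _s_at and _x_at probe sets 2 cilium genes lower, and probe sets above the median level 2 cilium genes higher. Without single arrays, forkhead genes higher numbered 1 and lower 4 to 5, forkhead probe sets higher 1 to 4 and lower 9, FOXO regulators higher 4 to 5 and lower 6 to 8, FOXO targets higher 15 to 16 and lower 0 to 1, partners higher 1 to 2 and lower 3 to 6, and cilium genes higher 3 to 5 and lower 0 to 1. These fits have fewer arrays by construction, and the lone array of a group is assumed to vary like the other group's. For the other settings the cause was not tested. Changes of uncalled genes that turned sign did so as follows. Reference-gene scaling gave Foxb2 0.19, Foxd2 0.11, Foxf1 0.000341, Foxj1 0.24, Foxo4 0.081, Foxq1 0.13 and Foxs1 0.22, and its form without Gusb and Polr2a gave Foxj1 0.011. Median centring gave Foxj2 -0.019, and the mean of probe sets Foxp4 -0.059. Over the omissions of single arrays, Foxf2 lay between -0.012 and 0.40, Foxj1 between -0.14 and 0.078, Foxj2 between -0.014 and 0.096, Foxk1 between -0.052 and 0.21, Foxp2 between -0.077 and 0.41, Foxq1 between -0.32 and 0.031 and Foxs1 between -0.14 and 0.026. Signal over background limits the 9 members near background in both groups, where a change cannot be sized.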

Other observations

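Foxd2 and Foxe3 also neighbour each other in the RefSeq gene order, and neither passed. Beside them, the nucleotide kinase gene Cmpk1 rose by 0.44 (SE 0.086, adjusted p = 0.0142) and the centriole duplication gene Stil fell by 1.26 (SE 0.091, adjusted p = 0.000542), while Tal1 and Trabd2b were near background in both groups.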
